A study of Mus musculus with 15 samples.

Results

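The genes of the mitochondrial genome were followed across purified mouse islet alpha, beta and delta cells. They were taken as every row of the expression table whose gene symbol starts with mt-, which gave 37 of 38283 genes. These comprised 13 protein genes, 2 rRNA genes and 22 tRNA genes. RNA was sequenced in 15 samples of sorted cells, 5 of alpha cells, 4 of beta cells and 6 of delta cells, each from islets of several mice pooled together. Alpha and beta cells came from Glu-Venus mice, in which the proglucagon promoter drives the Venus fluorophore. Alpha cells were the Venus-positive cells, whereas beta cells carried no fluorophore of their own and were gated as Venus-negative cells of high scatter and autofluorescence. Delta cells came from Sst-CreXROSA26EYFP/EYFP mice, in which Cre under the somatostatin promoter switches on EYFP, so that in the comparisons with delta cells the cell type cannot be told apart from the mouse line. The labels give C57BL/6 as the strain throughout, and no treatment is named in the sample labels. The RNA was amplified before library preparation, broken to fragments of about 200 bp and read as single reads of 50 nt.

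Mitochondrial DNA is a small circle present in many copies in each cell. It encodes subunits of respiratory complexes I, III and IV and of the ATP synthase, the rRNAs of the mitochondrial ribosome, and the tRNAs that this ribosome uses. Both strands are transcribed as long precursors, from which the tRNAs, lying between the other genes, are cut out to release the mRNAs and rRNAs. In beta cells, ATP made by oxidative phosphorylation closes the potassium channels that hold the membrane at rest, and insulin is then released.

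Values are FPKM (fragments per kilobase of transcript and per 1000000 reads), a level per length that allows genes longer than the fragments to be set side by side within a sample. The tRNA genes and mt-Atp8 (204 nt) are at or below about the fragment length, so their levels compare poorly with those of longer genes. They were compared as log2(FPKM + 1) with limma, a linear model fitted over all 14405 genes with a mean above 1 FPKM in at least 1 cell type. A gene was called at an adjusted p under 0.05 (Benjamini-Hochberg over all genes tested). Differences are given on the log2 scale ± standard error, with the fold on the same scale. Since each sample is a pool, the p-values measure the spread between pools. Whether alpha and beta samples share pools is not given in the sources used here, and the fit took all samples as independent. In RNA from sorted populations, less RNA per cell and fewer cells of the labelled type cannot be told apart. The FPKM table gives no read totals, so the depth behind a value is unknown.

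The labels fitted the hormone genes. The summed level of 4 alpha cell markers was 184500 to 345000 FPKM in alpha samples and at most 1819 FPKM elsewhere, and the beta and delta marker lists were likewise highest in the samples of their name. Markers of endothelial cells summed to at most 0.997 FPKM and those of immune cells to at most 2.79 FPKM. Markers of acinar cells summed to 19.7 to 479.5 FPKM in delta samples, to at most 66.3 FPKM in alpha samples and to at most 8.82 FPKM in beta samples, and 6 genes induced by tissue dissociation summed to 29.7 to 78.9, 14.5 to 56.0 and 4.17 to 20.3 FPKM, respectively. Markers of ductal cells summed to 8.83 to 85.5, 15.4 to 159.9 and 0.813 to 18.3 FPKM in the same order. Ppy, the hormone gene of PP cells, was at 10860.0 to 48600.0 FPKM in delta samples and at 17730.0 to 41390.0 FPKM in alpha samples but at 17.0 to 98.1 FPKM in beta samples, so that it separated beta cells from both other cell types, as many of the genes below do. The part of these markers in the results was not tested. A second split ran across the cell types. The summed level of 84 ribosomal protein genes was above 50000 FPKM in 6 samples (alpha 1, 2 and 3, beta 2, and delta 1 and 2, hereafter the high set) and below it in the other 9 (the low set). Apart from this, 3 rows of nuclear short RNAs took 50.3 to 94.1% of all FPKM. That share overlapped between the sets, from 63.2% upward in the high set and up to 85.0% in the low set. Values within each set are therefore given beside the pooled ones for the protein and rRNA genes. The sets do not even out this sum between cell types. Within the low set it was 7912 to 13813 FPKM in beta samples and 15112 to 38762 FPKM in alpha and delta samples. Comparisons within the low set thus do not separate cell type from this sum.

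Protein genes of the mitochondrial genome were higher in beta cells than in alpha and delta cells. In beta minus alpha cells, 7 of the 12 protein genes tested were called higher and none lower, where 2.84% of all genes tested were called higher in beta cells and 4.82% lower. In delta minus beta cells, 8 of 12 were called lower and none higher, where 2.99% of all genes were called lower in delta cells. Between delta and alpha cells, none of the 12 was called, and none reached an unadjusted p under 0.05, where 6.81% of all genes were called in either direction (5.33% higher and 1.48% lower in delta cells). The median difference over the 12 genes was 2.04 in beta minus alpha cells, -0.26 in delta minus alpha cells and -2.13 in delta minus beta cells, beside medians over all genes of -0.13, 0.13 and 0.30, respectively. The comparisons share samples, as the beta samples enter both of those with calls. The remaining protein gene, mt-Nd4l, did not pass the filter, as it was listed at 0 in 14 of 15 samples and at 0.365 FPKM in delta 4.

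**Figure D1:**
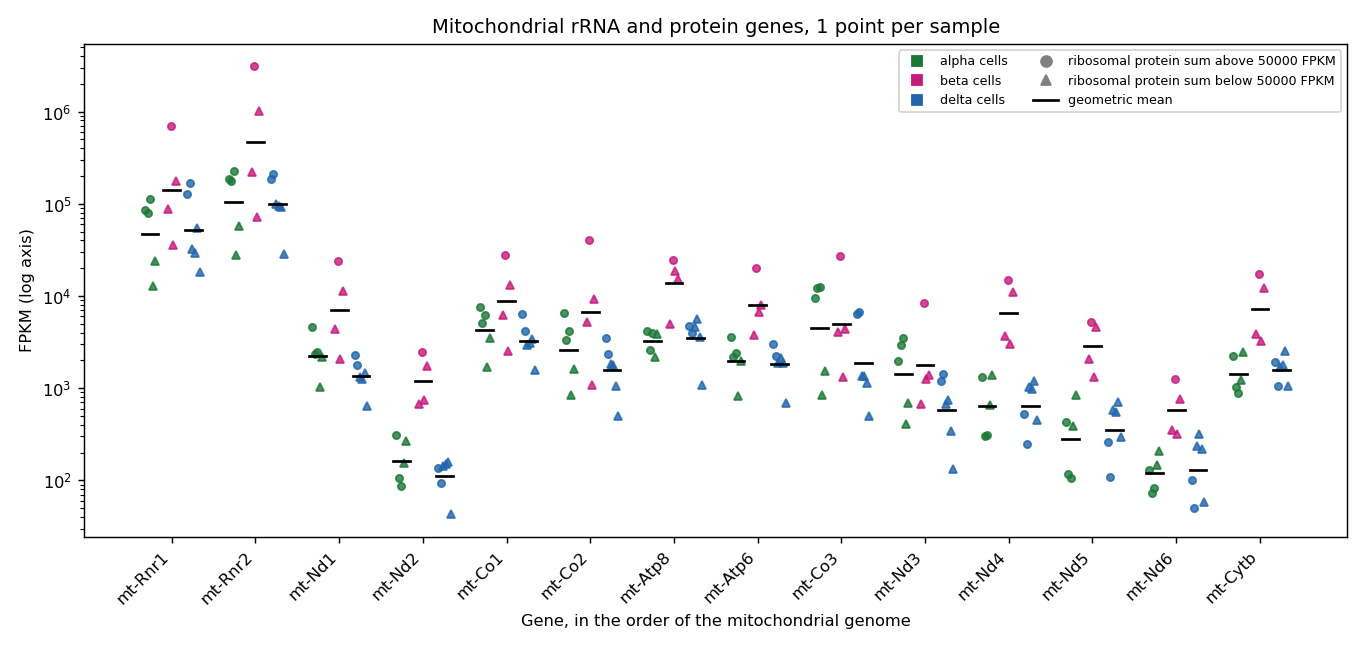
FPKM on a log axis of the mitochondrial rRNA genes and the 12 protein genes that passed the filter, in the order of the mitochondrial genome. Each point is 1 sample of alpha, beta or delta cells, circles and triangles mark the high and low sets of samples, and black bars are geometric means; the beta points lie highest for mt-Nd2, mt-Nd4 and mt-Nd5, with no overlap with the other cell types, while mt-Co3 overlaps in all of them.

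The largest differences were in complex I, the NADH dehydrogenase through which electrons enter the respiratory chain. The transcript of mt-Nd2, a core membrane subunit (ENSMUSG00000064345, chrM:3914-4951), was at 309, 107, 87.1, 154 and 267 FPKM in alpha samples 1 to 5, at 668, 2447, 738 and 1719.5 FPKM in beta samples 1 to 4, and at 42.9 to 159.6 FPKM (median 140.2) in delta samples. Every beta sample lay above every alpha and delta sample. The difference was 2.86 ± 0.55 in beta minus alpha cells (7.28-fold, limma adjusted p = 0.00401) and -3.41 ± 0.53 in delta minus beta cells (10.7-fold lower, adjusted p = 0.000394), whereas delta minus alpha cells gave -0.55 ± 0.50 (adjusted p = 0.648). For mt-Nd4, a proton-pumping subunit (ENSMUSG00000064363, chrM:10167-11544), the levels were 1309, 302, 308, 649 and 1394 FPKM in alpha samples, 3665, 14805, 3024 and 11026 FPKM in beta samples, and 246 to 1185 FPKM (median 751) in delta samples. Again no beta sample fell within the range of the others. It was 10.1-fold higher in beta than in alpha cells (3.34 ± 0.67, limma adjusted p = 0.00542) and 10.2-fold lower in delta relative to beta cells (-3.34 ± 0.64, adjusted p = 0.00213), with -0.00 ± 0.60 in delta minus alpha cells (adjusted p = 1.0). A further proton-pumping subunit, mt-Nd5 (ENSMUSG00000064367, chrM:11742-13565), was at 427, 116, 107, 385 and 839 FPKM in alpha samples, at 2051, 5280.01, 1314 and 4625 FPKM in beta samples, and at 110 to 708 FPKM (median 420.1) in delta samples. The beta samples were again the highest 4 of the 15. The differences were 3.34 ± 0.71 in beta minus alpha cells (adjusted p = 0.00776), -3.02 ± 0.68 in delta minus beta cells (adjusted p = 0.00679) and 0.32 ± 0.64 in delta minus alpha cells (adjusted p = 0.871), all from limma.

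The other complex I genes differed less. mt-Nd1, which encodes the subunit at the quinone site (ENSMUSG00000064341, chrM:2751-3707), was at 4575, 2336, 2469, 1038 and 2151 FPKM in alpha samples, at 4360.3, 23831, 2070.09 and 11398 FPKM in beta samples, and at 642 to 2286 FPKM (median 1391) in delta samples. Beta 3 lay inside the range of both other cell types. The call was made in delta minus beta cells alone (-2.37 ± 0.62, limma adjusted p = 0.0170), beside 1.64 ± 0.65 in beta minus alpha cells (adjusted p = 0.139) and -0.73 ± 0.58 in delta minus alpha cells (adjusted p = 0.610). mt-Nd6 (ENSMUSG00000064368, chrM:13552-14070) is the protein gene of the minus strand, opposite to the 12 others, and its transcript was the least abundant in alpha and beta cells among the 12 protein genes that passed the filter. It was at 129, 73.6, 83.2, 146 and 207 FPKM in alpha samples, at 355, 1261, 322 and 769.5 FPKM in beta samples, and at 50.02 to 319 FPKM (median 161) in delta samples. No beta sample overlapped with either cell type, though beta 3 exceeded delta 4 by little. The differences were 2.27 ± 0.61 in beta minus alpha cells (limma adjusted p = 0.0337) and -2.13 ± 0.59 in delta minus beta cells (adjusted p = 0.0229), and delta minus alpha cells gave 0.14 ± 0.55 (adjusted p = 0.954). Whether the reads kept their strand is not given in the sources used here, so reads of mt-Nd6 and of the transcripts opposite to it cannot be told apart. mt-Nd3 was at 1987, 2947, 3482, 405 and 693 FPKM in alpha samples, at 675, 8283, 1244 and 1386 FPKM in beta samples, and at 133 to 1412 FPKM (median 705) in delta samples. All 3 ranges overlapped, and none of its differences was called, at 0.31 ± 0.86 in beta minus alpha cells (limma adjusted p = 0.878), -1.60 ± 0.82 in delta minus beta cells (adjusted p = 0.220) and -1.28 ± 0.77 in delta minus alpha cells (adjusted p = 0.463).

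mt-Cytb encodes cytochrome b, the catalytic core of complex III that the mitochondrial genome supplies (ENSMUSG00000064370, chrM:14145-15288). It was at 2238, 1034, 876, 1217 and 2475 FPKM in alpha samples, at 3886, 17324, 3282 and 12212 FPKM in beta samples, and at 1049 to 2517 FPKM (median 1741) in delta samples. The beta samples did not overlap with the others. It was 5.02-fold higher in beta than in alpha cells (2.33 ± 0.55, limma adjusted p = 0.0173) and 4.53-fold lower in delta relative to beta cells (-2.18 ± 0.53, adjusted p = 0.0110), with 0.15 ± 0.50 in delta minus alpha cells (adjusted p = 0.939).

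The genes of complex IV, cytochrome c oxidase, which passes electrons to oxygen, were not called in any of the 3 comparisons. In alternative fits, all 3 genes were called in delta minus beta cells with the sample set as a covariate, a fit that called 661 of 14405 genes lower, and in beta minus alpha cells after scaling to nuclear non-hormone FPKM, a fit that called 1439 of 9925 genes higher. mt-Co1, mt-Co2 and mt-Co3 differed by 1.03 ± 0.65, 1.37 ± 0.88 and 0.15 ± 1.03 in beta minus alpha cells and by -1.41 ± 0.63, -2.12 ± 0.85 and -1.41 ± 0.996 in delta minus beta cells, respectively. mt-Co3 and mt-Co2 had the largest standard errors of the 12 genes in beta minus alpha cells, and within beta cells mt-Co2 ran from 1089.7 to 40065 FPKM, a 36.8-fold span. mt-Co3 had the second largest difference in delta minus alpha cells after mt-Nd3 (-1.27 ± 0.93, limma adjusted p = 0.572). It was at 9467, 12347, 12525, 841 and 1542 FPKM in alpha samples, at 4081, 26957, 1309 and 4368 FPKM in beta samples, and at 502 to 6706 FPKM (median 1357) in delta samples. Its levels followed the sets, in that the 6 samples of the high set were above all 9 of the low set.

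The ATP synthase subunits mt-Atp8 and mt-Atp6 lie on a shared stretch of mRNA in overlapping reading frames, and mt-Nd4l and mt-Nd4 overlap in the same way. These junctions are shown because a read that falls on the shared bases can be counted for either gene. The sequences are from the GENCODE M21 transcripts (GRCm38), plus strand, 5′ to 3′, with the bases held by both genes in capitals, at chrM:7907-7989 for the first junction and chrM:10147-10193 for the second:
mt-Atp8 and mt-Atp6: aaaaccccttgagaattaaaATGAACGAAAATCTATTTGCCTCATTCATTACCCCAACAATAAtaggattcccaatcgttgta
mt-Nd4l and mt-Nd4: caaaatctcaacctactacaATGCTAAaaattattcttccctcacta
In both junctions the capitals open with ATG, the start codon of the downstream gene, and close with TAA, the stop codon of the upstream gene. The overlap is 43 nt of the 204 nt of mt-Atp8 and 7 nt of the 297 nt of mt-Nd4l. The values of 0 thus stand in a gene that holds nearly all of its bases alone, between mt-Nd3 and mt-Nd4, which were at 133 FPKM or more in every sample. A nuclear gene, Gm10222, matches 294 nt of mt-Nd4l without a mismatch and was at most at 1.19 FPKM.

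mt-Atp8 (ENSMUSG00000064356, chrM:7766-7969) was at 4195, 2577, 3985, 2192 and 3884 FPKM in alpha samples, at 4914, 24717, 18836 and 15294 FPKM in beta samples, and at 1088 to 5555 FPKM (median 4287) in delta samples. The beta samples were above every alpha sample, and beta 1 lay within the delta range. The differences were 2.07 ± 0.56 in beta minus alpha cells (limma adjusted p = 0.0331), -1.97 ± 0.54 in delta minus beta cells (adjusted p = 0.0213) and 0.10 ± 0.50 in delta minus alpha cells (adjusted p = 0.965). mt-Atp6, the subunit that forms the proton path of the enzyme (ENSMUSG00000064357, chrM:7927-8607), was at 3593, 2171, 2419, 828 and 1948 FPKM in alpha samples, at 3781, 20005, 6633 and 7995 FPKM in beta samples, and at 693 to 2994 FPKM (median 2003) in delta samples. No beta sample overlapped with the others, although beta 1 exceeded alpha 1 by little. Its differences were 2.01 ± 0.57 in beta minus alpha cells (limma adjusted p = 0.0416), -2.14 ± 0.55 in delta minus beta cells (adjusted p = 0.0149) and -0.13 ± 0.51 in delta minus alpha cells (adjusted p = 0.952). The first of these was the call nearest to the threshold in beta minus alpha cells, and it was lost in 14 of 25 alternative fits.

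**Figure D2:**
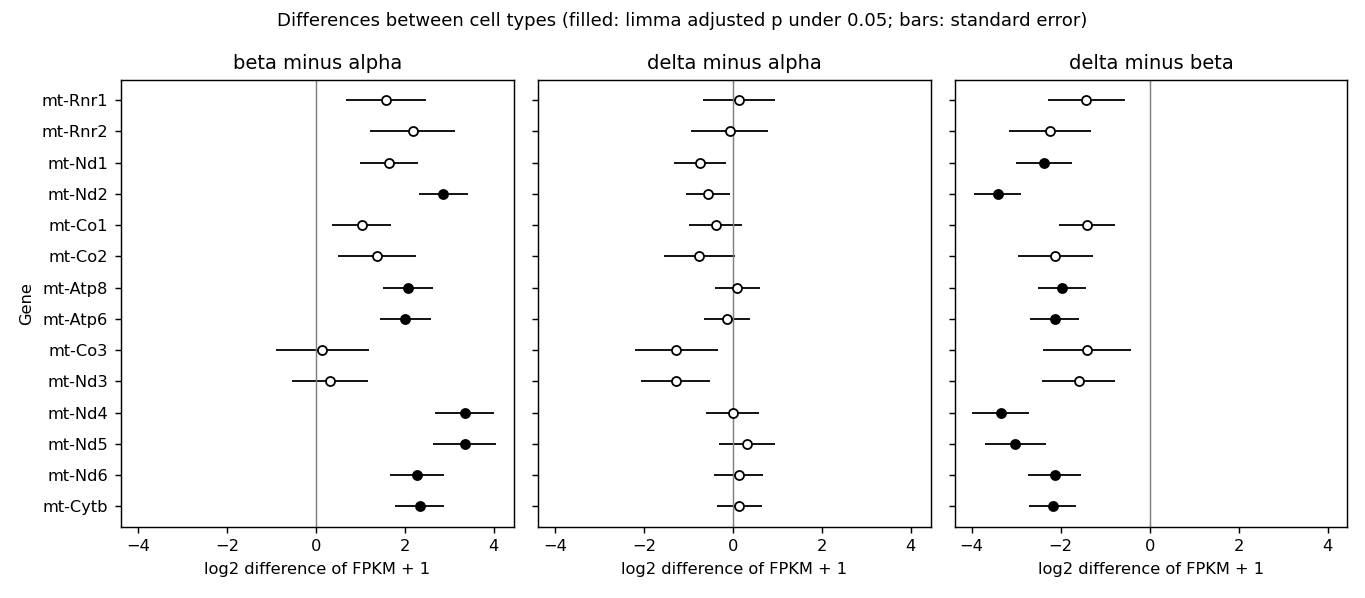
Log2 differences of FPKM + 1 between cell types for the rRNA genes and 12 protein genes, with standard errors as bars. Filled points passed an adjusted p of 0.05 (limma); 7 protein genes are filled on the positive side in beta minus alpha cells, 8 on the negative side in delta minus beta cells and none in delta minus alpha cells.

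Across the 12 genes, the difference was positive for all 12 in beta minus alpha cells and negative for all 12 in delta minus beta cells, but in beta minus alpha cells mt-Co3 turned negative with quantile normalization (-0.033), with the replicate number as a block (-0.19) and without alpha 4, alpha 5 or beta 2 (down to -0.66), and mt-Nd3 without alpha 4 or beta 2 (down to -0.43). In 7 of 12 genes every beta sample exceeded every alpha sample, as in 3.05% of all genes tested, and in none did every beta sample lie below (5.07% of all genes). In 6 of 12 every delta sample lay below every beta sample (2.62% of all genes). Delta and alpha samples overlapped for all 12, where 4.97% of all genes were higher and 1.67% lower in delta cells without overlap. The 7 genes called and the 7 without overlap in beta minus alpha cells were the same. In delta minus beta cells, mt-Nd1 and mt-Atp8 were called with overlapping samples. The calls differed in how firmly they stood. Over 25 alternative fits, mt-Nd2 and mt-Nd4 kept both calls in all 25, and mt-Nd5 kept the call in beta minus alpha cells in all 25. Leaving out 1 sample moved the number called in beta minus alpha cells from 7 to between 3 (without beta 4) and 7, with 4 without beta 2 and 4 without alpha 2, and in delta minus beta cells from 8 to between 5 (without beta 4) and 9 (without beta 3). Over all genes, the number called higher in beta minus alpha cells went from 409 to 244 without beta 4, 354 without beta 2 and 276 without alpha 2. The number called lower in delta minus beta cells went from 431 to 264 without beta 4 and 739 without beta 3. In beta minus alpha cells, mt-Cytb lost its call without beta 4 (limma adjusted p = 0.0671). mt-Nd6 lost it without alpha 1, 2 or 3 or beta 2 or 4 (0.0589 to 0.102), mt-Atp8 without alpha 1, 2 or 4 or beta 2, 3 or 4 (0.0510 to 0.0930), and mt-Atp6 without any of 11 samples (0.0501 to 0.102), alpha 2 to 5, beta 2 to 4 and delta 2 to 5. In delta minus beta cells, mt-Nd1 lost its call without beta 4 (limma adjusted p = 0.0654), mt-Atp8 without beta 3 or 4 (0.0573 and 0.0619) and mt-Nd6 without beta 2 or 4 (0.0560 and 0.0727).

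Beta 2, the beta sample of the high set, was the highest of all 15 samples for each of the 12 genes. Within the high set it exceeded the mean of the 3 alpha samples by 2.36 to 24.4 times and that of the 2 delta samples by 4.14 to 38.2 times. Within the low set, the mean of the 3 beta samples exceeded that of the 2 alpha samples by 2.01 to 5.78 times and that of the 4 delta samples by 2.31 to 8.35 times. For 7 of 12 genes all low-set beta samples exceeded all low-set alpha samples, as in 7.11% of all genes tested, and for 7 of 12 they exceeded all low-set delta samples, as in 3.53%. The direction was thus found within both sets, although the high set held 1 beta sample and gave no spread for it. Beta 2 also had the largest median-ratio size factor of the 15 samples (1.71, a scale computed over genes in general). The share of all genes that were highest in beta 2 was not computed. How much of its ratios is common to genes in general was not tested. The span between samples of the same cell type was wide, at 1.91 (mt-Atp8) to 14.9 (mt-Co3) from lowest to highest in alpha cells, 3.66 (mt-Nd2) to 36.8 (mt-Co2) in beta cells and 2.40 (mt-Cytb) to 13.4 (mt-Co3) in delta cells.

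FPKM in this table could not be read as parts of a fixed whole. FPKM times gene length in kilobases, which would sum to about 1000000 if all reads were in the denominator, summed to between 995398 (delta 6) and 8620040 (beta 2) over the 36341 genes with a known length. In beta 2, mt-Rnr2 alone came to 4888380. The denominator or scaling behind the values is not given in the sources used here, so 3 measures that do not depend on it were added. The first was the share of FPKM times length that fell on mitochondrial genes. Protein genes took 0.754 to 1.92% (median 1.07%) in alpha samples, 1.61 to 2.70% (median 2.26%) in beta samples and 0.697 to 1.37% (median 1.12%) in delta samples. The beta samples were above all delta samples, and beta 3 at 1.61% was below alpha 1 at 1.92%. The rRNA genes took 4.59 to 19.4% in alpha samples, 6.25 to 24.3% in delta samples, and 30.4, 64.4, 8.47 and 45.8% in beta samples 1 to 4. Beta 3 was inside the range of the other cell types and the remaining beta samples were above it. As these are shares of a whole, a rise of the rRNA share lowers the others.

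The second measure set the mitochondrial protein genes against their nuclear partners, the subunits of the same complexes that are encoded in the nucleus (79 genes listed). The ratio of summed FPKM was 2.96, 1.08, 1.45, 1.56 and 2.06 in alpha samples 1 to 5, 9.33, 8.53, 10.1 and 13.8 in beta samples 1 to 4, and 1.26 to 2.42 (median 1.83) in delta samples. This gave means of 1.82 ± 0.73 (SD, n = 5), 10.4 ± 2.34 (SD, n = 4) and 1.82 ± 0.49 (SD, n = 6), respectively. The 4 beta samples, from both sets, lay far from the others, and the delta samples lay within the range of the alpha samples. The sums are of plain FPKM, in which the length of a gene is not counted. In beta 3, mt-Atp8, a gene of 204 nt, held 18836 of the 42398 FPKM of the protein genes. The ratio without mt-Atp8 was not computed. Of 75 nuclear subunits tested in beta minus alpha cells, 1 was called higher and 2 lower (2.84 and 4.82% of all genes), and their median difference was -0.998 beside -0.13 over all genes. In delta minus beta cells, 5 were called higher and 1 lower (11.7 and 2.99% of all genes), with a median of 0.57 beside 0.30.

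**Figure D3:**
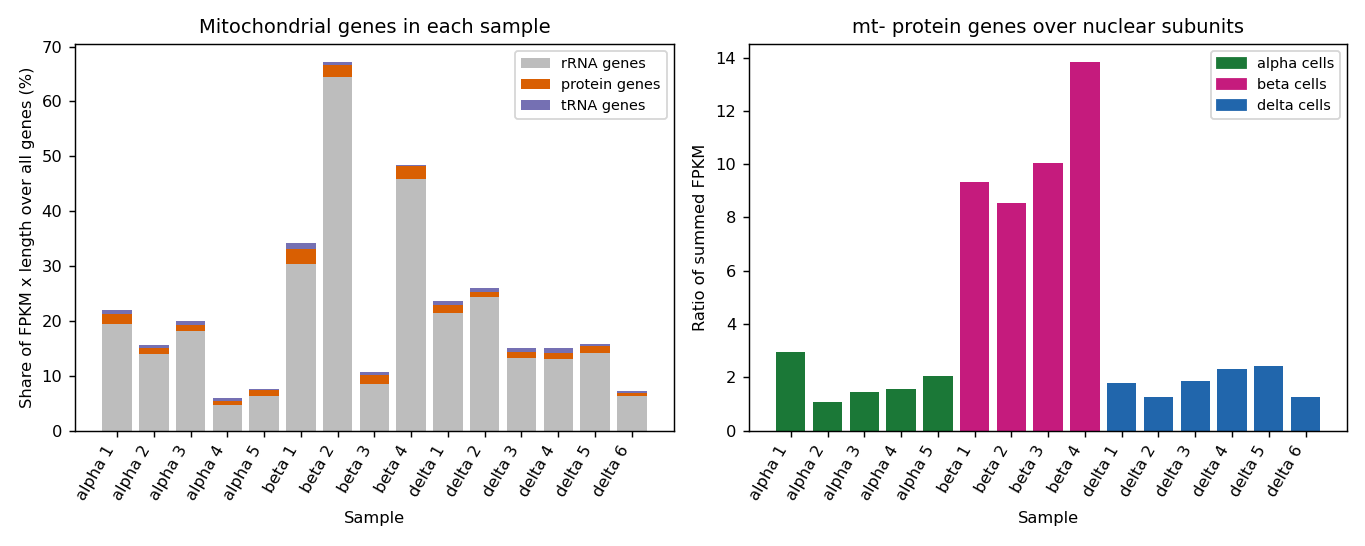
Left, the percentage of FPKM times gene length over all genes that fell on mitochondrial rRNA, protein and tRNA genes in each sample, as stacked bars. Right, summed FPKM of mitochondrial protein genes divided by that of the nuclear subunits of the same complexes; the 4 beta samples stand at 8.53 to 13.8 and the other 11 samples at 1.08 to 2.96.

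The third measure was the composition of the protein genes, given as the ratio of each gene to mt-Co1 in the same sample, which removes any factor common to a sample. For mt-Nd4 the ratio was 0.53 to 1.19 in beta samples, 0.0491 to 0.397 in alpha samples and 0.0591 to 0.351 in delta samples. For mt-Nd1 it was 0.71 to 0.862, 0.394 to 0.612 and 0.36 to 0.449, respectively. These were the 2 of 11 ratios in which the beta samples lay above all other samples. Ratios also followed the sets. Among alpha and delta samples, those of the high set had lower ratios than those of the low set for 4 of 11 genes, all from the end of the genome where mt-Nd4, mt-Nd5, mt-Nd6 and mt-Cytb lie. For mt-Cytb the ratio was 0.14 to 0.301 in the high set and 0.581 to 0.745 in the low set, and for mt-Nd5 it was 0.017 to 0.0569 and 0.179 to 0.239. mt-Co3 ran the other way, at 0.995 to 2.41 in the high set and 0.321 to 0.495 in the low set. Beta 2 was above the alpha and delta samples of its set, with mt-Nd4 at 0.53, mt-Nd5 at 0.189, mt-Nd6 at 0.0451 and mt-Cytb at 0.62, but below all beta samples of the low set, the lowest of which were at 0.596, 0.334, 0.0578 and 0.632, respectively. For mt-Co3 it was above them, at 0.965 against 0.33 to 0.664. Beta 3 stood apart from the other beta samples, with mt-Atp8 at 7.42 and mt-Atp6 at 2.61 times mt-Co1 where those were at most at 1.16 and 0.716. With the set as a covariate, 10 of 12 protein genes were called higher in beta minus alpha cells (559 of all 14405 genes) and 12 of 12 lower in delta minus beta cells (661 of 14405).

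**Figure D4:**
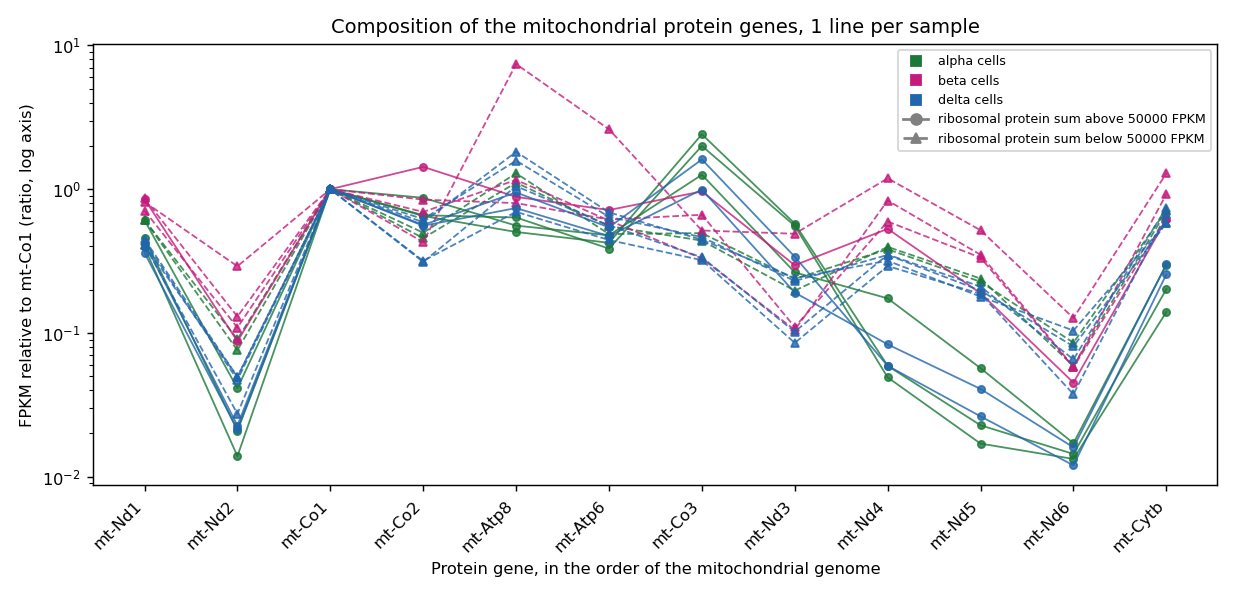
FPKM of each mitochondrial protein gene relative to mt-Co1 in the same sample, on a log axis, with 1 line per sample coloured by cell type. Solid lines with circles are samples of the high set and dashed lines with triangles those of the low set; the solid alpha and delta lines lie below the dashed ones from mt-Nd4 to mt-Cytb and above them at mt-Co3, and the beta lines are highest at mt-Nd1 and mt-Nd4.

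The rRNAs of the mitochondrial ribosome were the most abundant mitochondrial transcripts outside the tRNAs. mt-Rnr1, the 12S rRNA of the small subunit (ENSMUSG00000064337, chrM:70-1024), was at 86076, 79286, 111358, 12780.3 and 23875 FPKM in alpha samples, at 88024, 697552, 35518 and 175727 FPKM in beta samples, and at 18055 to 168922 FPKM (median 43076) in delta samples. mt-Rnr2, the 16S rRNA of the large subunit (ENSMUSG00000064339, chrM:1094-2675), was at 186569, 175393, 229113, 27805 and 58061 FPKM in alpha samples, at 219257, 3090000, 71038 and 1010000 FPKM in beta samples, and at 28410.1 to 212469 FPKM (median 96414) in delta samples. The samples of the cell types overlapped for both genes, with beta 3 low and beta 2 and beta 4 high. In the high set, beta 2, the sample with the largest size factor, exceeded the alpha mean by 7.56 to 15.7 times and the delta mean by 4.69 to 15.6 times for the 2 genes. In the low set, the beta mean exceeded the alpha mean by 5.44 to 10.1 times, without overlap for both genes beside 7.11% of all genes tested. It exceeded the delta mean there by 2.98 to 5.53 times, with overlap for both genes beside 3.53% of all genes without it. Neither gene was called in any comparison. In beta minus alpha cells the differences were 1.57 ± 0.90 for mt-Rnr1 (limma adjusted p = 0.318) and 2.18 ± 0.96 for mt-Rnr2 (adjusted p = 0.185), and in delta minus beta cells they were -1.42 ± 0.86 (adjusted p = 0.301) and -2.24 ± 0.92 (adjusted p = 0.119). In delta minus alpha cells they were 0.15 ± 0.81 and -0.07 ± 0.86 (adjusted p = 0.970 and 0.992). mt-Rnr2 in beta minus alpha and in delta minus beta cells was below an unadjusted p of 0.05, as were 22.9 and 28.4% of all genes. Single samples moved these differences. The median of the 2 genes in beta minus alpha cells went from 1.87 to 1.03 without beta 2 and to 2.66 without beta 3. In delta minus beta cells it went from -1.83 to -0.99 without beta 2 and to -2.62 without beta 3, where 1 of the 2 was called (739 of 14501 genes called lower). With the set of samples as a covariate, both genes were called in both comparisons with beta cells, in fits that called 559 of 14405 genes higher in beta minus alpha cells and 661 of 14405 lower in delta minus beta cells.

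The rRNA genes did not keep a constant relation to each other or to the mRNAs. mt-Rnr2 was 2.06 to 2.43 times mt-Rnr1 in alpha samples and 1.26 to 3.19 times in delta samples, while beta samples 1 to 4 were at 2.49, 4.43, 2.00 and 5.75. Beta 2 and beta 4 were thus above all other samples. Summed rRNA over summed protein FPKM was 3.90 to 9.27 in alpha samples, 6.29 to 15.8 in delta samples, and 7.73, 17.8, 2.51 and 12.7 in beta samples 1 to 4, so that the beta samples held both the highest and the lowest value.

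The tRNA genes are 59 to 75 nt long, so that a read of 50 nt can start at 10 to 26 positions within them and a fragment of 200 bp is longer than the whole gene. Of their 330 values, 65 were listed at 0, and 18 of 22 tRNA genes were listed at 0 in at least 1 sample. The lowest value above 0 was 67.7 FPKM (delta 6) to 628 FPKM (beta 2) in a sample, and no value lay between it and 0. Differences of tRNA genes below that range were not detectable. The genes above 0 in all samples were mt-Tl1, mt-Tn, mt-Tc and mt-Ts1, of which mt-Tn and mt-Ts1 are named for this alone. The sequences shown are those of the 3 tRNAs called in a comparison and of mt-Ts1, which had the highest level. They are from the GENCODE M21 transcripts (GRCm38), 5′ to 3′ along the gene's own strand, with DNA letters and the anticodon in capitals, and lie at chrM:2676-2750 (mt-Tl1, plus strand), chrM:5192-5257 (mt-Tc, minus strand), chrM:6942-7011 (mt-Td, plus strand) and chrM:6870-6938 (mt-Ts1, minus strand):
mt-Tl1: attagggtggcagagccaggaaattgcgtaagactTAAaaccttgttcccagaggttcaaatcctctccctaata
mt-Tc: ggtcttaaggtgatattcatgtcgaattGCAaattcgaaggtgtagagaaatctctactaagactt
mt-Td: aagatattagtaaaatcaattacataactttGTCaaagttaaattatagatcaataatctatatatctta
mt-Ts1: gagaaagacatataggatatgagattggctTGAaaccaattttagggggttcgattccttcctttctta
The anticodons TAA, GCA, GTC and TGA read codons of leucine, cysteine, aspartate and serine, respectively. mt-Ts1 and mt-Td lie side by side on opposite strands.

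mt-Ts1 carried 48.5 to 91.3% of summed tRNA FPKM in a sample. mt-Ts1 lies on the minus strand and shares 3 nt with mt-Co1 on the opposite strand, and as the strand of the reads is not given in the sources used here, its reads and reads of transcripts opposite to it cannot be told apart. It was at 48096 to 196209 FPKM in alpha samples, at 175975, 459086, 79466 and 116316 FPKM in beta samples, and at 20568 to 199776 FPKM (median 150238) in delta samples, and was not called in any comparison. The next highest by median was mt-Tl1 in all 3 cell types, at 8226, 22586 and 7666 FPKM in alpha, beta and delta cells. mt-Tl1, which follows mt-Rnr2 directly, was at 4828, 8226, 13538, 15033 and 6624 FPKM in alpha samples, at 12619, 13672, 32723 and 31500.2 FPKM in beta samples, and at 1478 to 11950.4 FPKM (median 7666) in delta samples. All beta samples were above all delta samples, and the 2 highest alpha samples overlapped with the 2 lowest beta samples. It was called lower in delta relative to beta cells (-2.08 ± 0.64, limma adjusted p = 0.0398), a call lost in 11 of 25 alternative fits, among them those without beta 1, 3 or 4 or delta 3 or 4 (adjusted p 0.0506 to 0.124).

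mt-Tc was called in both comparisons of delta cells. It too is a minus-strand gene, so the same limit on strand applies to its values. It was at 4752, 6112, 3896, 3956 and 2248 FPKM in alpha samples, at 2489, 11019.6, 3802 and 2969 FPKM in beta samples, and at 105 to 2217 FPKM (median 763) in delta samples. No delta sample reached the others, with delta 5 just under alpha 5. The differences were -2.68 ± 0.66 in delta minus alpha cells (6.42-fold, limma adjusted p = 0.0192) and -2.76 ± 0.71 in delta minus beta cells (6.75-fold, adjusted p = 0.0150), and beta minus alpha cells gave 0.07 ± 0.74 (adjusted p = 0.990). The former was lost in 4 of 25 alternative fits, also without alpha 1 or alpha 2 (adjusted p = 0.0503 and 0.0537), and the latter in 1, with no filter. Of the neighbours of mt-Tc on its strand, mt-Tn and mt-Ty, chosen after their values were seen, neither was called. mt-Td was listed at 0 in alpha samples 1 to 3 and at 69.2 and 526 FPKM in alpha 4 and 5. It was at 321, 676, 226 and 1365 FPKM in beta samples, and it was listed at 0 in 4 of 6 delta samples and at 289.5 and 198 FPKM in delta 3 and delta 6. Beta and delta samples overlapped. The call in delta minus beta cells (-6.36 ± 2.06, limma adjusted p = 0.0494) rests on values of 0, with -8.57 at a pseudocount of 0.1, and was lost in 15 of 25 alternative fits, also without any of alpha 1 to 4, beta 1 to 4 or delta 1, 2, 4 or 5 (adjusted p 0.0501 to 0.133).

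**Figure D5:**
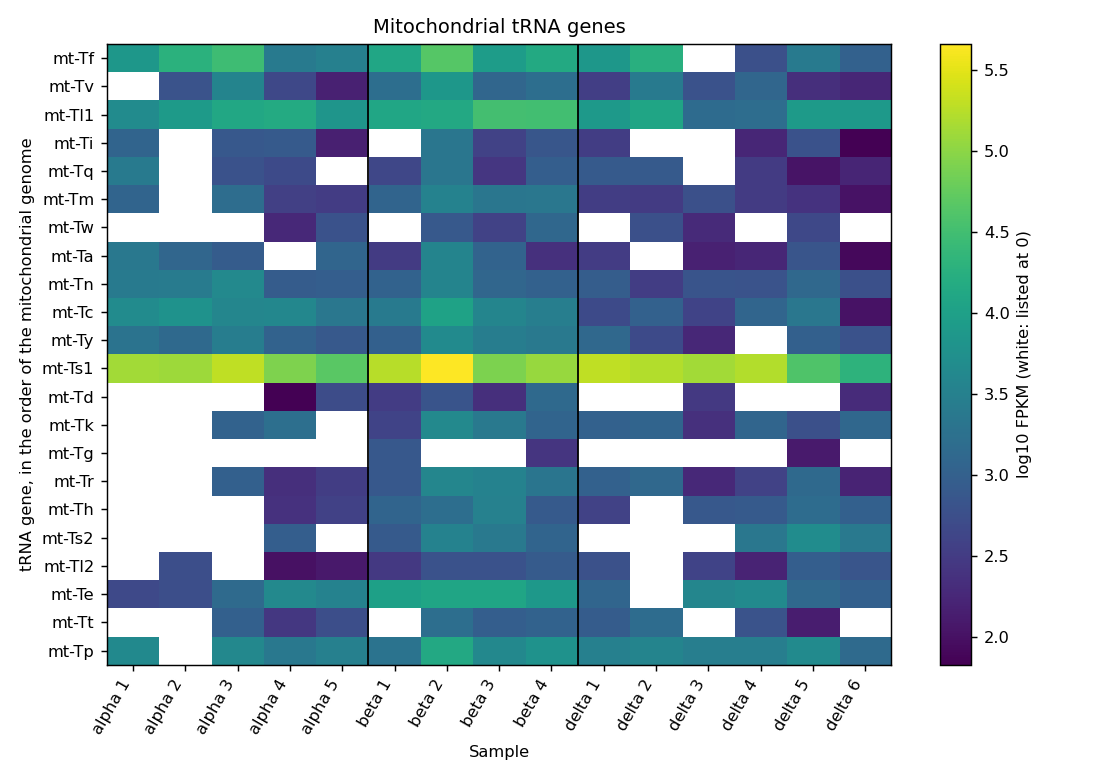
Log10 FPKM of the 22 mitochondrial tRNA genes in each sample, with black lines between cell types and white cells for values listed at 0. mt-Ts1 is the brightest row in every sample, at 20568 to 459086 FPKM, and the 65 white cells are spread over 18 genes, fewer of them in beta samples.

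Over all 22 tRNA genes, none was called in beta minus alpha cells, where 7.66% of all genes were called in either direction, although 9 were below an unadjusted p of 0.05, as were 22.9% of all genes, and the lowest adjusted p was 0.0524 (limma). In delta minus alpha cells 1 of 22 was called, lower (1.48% of all genes), and in delta minus beta cells 3 of 22, all lower (2.99%). The difference was positive for 20 of 22 in beta minus alpha cells and negative for 22 of 22 in delta minus beta cells, with medians of 3.22 and -2.49, both of which depend on the pseudocount where values are listed at 0. Samples did not overlap for 2 of 22 in beta minus alpha cells, mt-Th and mt-Te, both higher in each beta sample (3.05% of all genes), for 1 of 22 in delta minus alpha cells, mt-Tc (1.67% were lower), and for 4 of 22 in delta minus beta cells, mt-Tl1, mt-Tm, mt-Tc and mt-Te (2.62% were lower). The genes among these that were not called are named after their values were seen. The tRNA share of FPKM times length was 0.279 to 0.714% in alpha, 0.358 to 1.10% in beta and 0.274 to 0.937% in delta samples, ranges that overlapped.

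Mitochondrial transcripts are made and handled by proteins encoded in the nucleus. Of 41 such genes listed, 38 were found in the table and 36 tested, and none was called in beta minus alpha cells, where 7.66% of all genes were, with 4 below an unadjusted p of 0.05 beside 22.9% of all genes (limma). The difference was positive for 14 and negative for 22 of the 36, with a median of -0.10 beside -0.13 over all genes. The one farthest from 0 was that of Hsd17b10, a subunit of the enzyme that cuts tRNAs out of mitochondrial transcripts, named after its values were seen, with means of 37.4 ± 22.9 in alpha (SD, n = 5) and 13.4 ± 14.3 FPKM in beta cells (SD, n = 4; -1.53 ± 0.72, limma adjusted p = 0.214). Polrmt, the mitochondrial RNA polymerase, was at 2.18 ± 2.12 (SD, n = 5), 5.29 ± 1.07 (SD, n = 4) and 6.37 ± 3.62 FPKM (SD, n = 6) in alpha, beta and delta cells, and beta minus alpha cells gave 1.21 ± 0.54 (limma adjusted p = 0.194). Tfam, the factor that packages mitochondrial DNA and starts its transcription, was at 14.3 ± 7.42, 32.3 ± 36.2 and 11.02 ± 6.16 FPKM, with 0.65 ± 0.68 in beta minus alpha cells (adjusted p = 0.601). Tfb2m, which opens the promoter with it, was at 4.03 ± 1.45, 12.8 ± 13.3 and 4.64 ± 1.38 FPKM (0.96 ± 0.52, adjusted p = 0.289), and Lrpprc, which stabilises mitochondrial mRNAs, was at 16.8 ± 3.90, 30.3 ± 28.2 and 8.28 ± 2.45 FPKM (0.24 ± 0.57, adjusted p = 0.855). For Tfam, Tfb2m and Lrpprc the highest values in beta cells were those of beta 2 and beta 4, at 84.6 and 28.5, 31.4 and 13.5, and 65.4 and 40.6 FPKM, which were also the beta samples highest in mt-Rnr2. Polrmt differed, with beta 3 highest at 6.72 FPKM and beta 2 and beta 4 at 5.51 and 4.496 FPKM. Median-ratio size factors, computed over genes in general, were 1.71 and 1.04 for beta 2 and beta 4 against 0.674 and 0.458 for beta 1 and beta 3. Elsewhere in the list, Pprc1, a coactivator of the same family as Ppargc1a, was called higher in delta relative to alpha cells (7.83 ± 3.60 against 2.72 ± 1.18 FPKM, 1.23 ± 0.32, limma adjusted p = 0.0258), and Esrra, a nuclear receptor that works with them, was called higher in delta relative to beta cells (2.16 ± 1.43 against 0.367 ± 0.226 FPKM, 1.12 ± 0.34, adjusted p = 0.0338). Each was the single call among the 36 genes in its comparison, where 5.33 and 11.7% of all genes were called higher in delta cells. No gene of the list was called in delta minus alpha cells without alpha 1, 2 or 3 or delta 1 or 3, and none in delta minus beta cells without beta 1 or 4 or delta 2 or 5.

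Copies of mitochondrial genes in the nuclear genome can share reads with them. Of the 37 genes, 9 matched a nuclear gene at 95% identity or more over at least 50 nt, all of them protein genes, and 11 nuclear genes were matched. Of these, 5 are in the table, at 0 to 16.6 FPKM. The mitochondrial rRNA and protein genes other than mt-Nd4l were at 42.9 FPKM or more in every sample. The 6 other nuclear genes are not in the table and were not analysed here. They matched mt-Atp6, mt-Co1, mt-Co2, mt-Co3, mt-Nd3 and mt-Nd4 at 99.71 to 100% identity. The match covered 31.3% of mt-Co1, 63.6% of mt-Nd4 and 99.1 to 99.9% of the others. How reads that fit both places were divided is not given in the sources used here, so the levels above do not settle it.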

How the data were processed

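Sequencing libraries were made from amplified RNA of 5 alpha, 4 beta and 6 delta cell samples, grouped by their sample labels. The authors used CASAVA for demultiplexing, TopHat for alignment to GRCm38 and Cufflinks 2.2.1 for the deposited FPKM; the submitters' processing notes name TopHat2 2.0.8. The annotation release, strandedness and scaling between libraries are not given in the sources used here. The study's own comparison used edgeR on counts, which were not used here.

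From the FPKM, log2(FPKM + 1) was fitted with limma 3.58.1 in R 4.3.3 (lmFit, eBayes with trend), 1 mean per cell type and no covariate, over 14405 genes. On simulated data of 14405 genes, 200 of them with a log2 change of 3 in delta cells, the fit recovered 176 (88%) in delta minus alpha cells with 9 false calls. Ratios and sums were computed with Python 3.11.15 and pandas 2.3.3; they have no test. Coordinates, lengths and sequences are from GENCODE M21 (GRCm38).

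Values in every alpha and beta sample, with the lowest, median and highest of the 6 delta samples, were given for the rRNA genes, mt-Nd6, protein genes called in a comparison and, where not called, the 2 protein genes with the largest difference per comparison; tRNA genes were named if called. The members and lists were chosen with earlier results of these data known. Alternatives were other filters (none, 5 FPKM), a pseudocount of 0.1, leaving the third cell type out of the fit, the replicate number as a block, median-ratio size factors, quantile normalization, scaling to nuclear non-hormone FPKM, the sample set as a covariate and leaving out each sample. Scaling to length-weighted nuclear signal and length-weighted shares were added after the data were seen.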

Additional observations from a re-analysis of the deposited data

Results flagged for a closer look

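In 4 of 72 groups of samples examined, over the mitochondrial genes and cell types, 1 sample lay far from the rest of its group by Dixon's criterion, and chance gives about 1 in 20 (3.6 of 72). In beta 2, mt-Co3 was at 26957.3 FPKM, with the nearest beta sample at 4368 FPKM. In the same sample mt-Nd3 was at 8283.12 FPKM (nearest 1386 FPKM) and mt-Tc at 11019.6 FPKM (nearest 3802 FPKM). Beta 2 is the beta sample of the high set. In alpha 5, mt-Td was at 526.268 FPKM, with the nearest alpha sample at 69.2 FPKM and the other 3 listed at 0.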

How the results depend on the processing

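Each alternative changed 1 choice, but some also changed which genes passed the filter (9925 after scaling to nuclear non-hormone FPKM and 13254 with only beta and alpha cells, instead of 14405). For the protein genes, the number called in beta minus alpha cells was 7, beside 409 of all 14405 genes called higher. It became 3 with no filter (298 of 38283), 3 with only the cell types compared (171 of 13254) and 12 after scaling to nuclear non-hormone FPKM (1439 of 9925). That scaling moved the median of all genes from -0.13 to 0.65 in that comparison. In delta minus beta cells, 8 (431 of 14405 genes called lower) became 4 with no filter (325 of 38283). With no filter 38283 genes were tested, most of them near 0. Leaving out 1 sample gave 3 to 7 calls in beta minus alpha cells, beside 244 to 654 of all genes called higher. It gave 5 to 9 in delta minus beta cells, beside 264 to 739 of all genes called lower. For the rRNA genes, beta minus alpha cells went from 0 calls to 1 with median-ratio size factors, 1 after scaling to length-weighted nuclear signal, 2 after scaling to nuclear non-hormone FPKM and 2 with the sample set as a covariate. Of all genes, 1107 of 14297, 764 of 14143, 1439 of 9925 and 559 of 14405 were called higher in these fits. Delta minus beta cells gave the same 1, 1, 2 and 2, where 1302, 696, 319 and 661 genes were called lower. Scaling to nuclear non-hormone FPKM gave 1 call in delta minus alpha cells, where 891 of 9925 genes were called higher. Leaving out 1 sample gave 0 to 1 in delta minus beta cells, the 1 without beta 3 (739 of 14501 genes called lower). For the tRNA genes, beta minus alpha cells went from 0 to 1 with a pseudocount of 0.1 (1457 of 14405 genes called in either direction), only the cell types compared (407 of 13254), quantile normalization (1970 of 14405), the sample set (1439 of 14405) or length-weighted scaling (1781 of 14143). They went to 2 with a filter of 5 FPKM (831 of 9184), to 3 with size factors (2088 of 14297) and to 7 after non-hormone scaling (1508 of 9925). Leaving out 1 sample gave 0 to 4, beside 651 to 1698 of all genes. In delta minus alpha cells 1 became 0 with no filter (926 of 38283 genes called in either direction), 2 with size factors (1027 of 14297) and 0 to 2 on leaving out 1 sample (792 to 1115 genes). In delta minus beta cells 3 became 0 with no filter (1712 of 38283), 1 with quantile normalization (2745 of 14405) or non-hormone scaling (724 of 9925) and 1 to 3 on leaving out 1 sample (1420 to 2643 genes). For the nuclear genes of mitochondrial RNA synthesis and handling, beta minus alpha cells went from 0 to 2 with size factors (2088 of 14297 genes called in all), 3 with length-weighted scaling (1781 of 14143), 5 with non-hormone scaling (1508 of 9925) and 0 to 2 on leaving out 1 sample. Their 1 call in delta minus alpha cells became 2 with no filter (926 of 38283 genes called in all) or length-weighted scaling (1283 of 14143), 0 with non-hormone scaling (940 of 9925) and 0 to 2 on leaving out 1 sample (792 to 1115 genes). Their 1 call in delta minus beta cells, of Esrra, became 0 with a filter of 5 FPKM, which its means of at most 2.16 FPKM do not pass. Non-hormone scaling also gave 0 (724 of 9925 genes called in all). Size factors gave 2 (2656 of 14297). Quantile normalization (2745 of 14405), length-weighted scaling (3035 of 14143) and the sample set (2997 of 14405) gave 3. Leaving out 1 sample gave 0 to 2 (1420 to 2643 genes called in all). Except where stated, the cause was not tested.

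Whether the replicate numbers pair the samples is not given in the sources used here. Correlations of deviations between same-numbered samples ran from -0.152 to 0.281. Differently numbered samples were not compared, so these values cannot decide it. Alpha and beta cells were both sorted from islets of Glu-Venus mice, and their samples may share pools. With the replicate number as a block, 6 protein genes were called in each comparison with beta cells. Of all 14405 genes, 423 were called higher in beta minus alpha and 342 lower in delta minus beta cells there. The tRNA calls in beta minus alpha cells went from 0 to 2, beside 1227 genes called in either direction. The nuclear list lost its calls in delta minus alpha and delta minus beta cells (0 and 0), where 831 and 2001 genes were called in either direction. The block turned the signs of mt-Rnr2 (0.29), mt-Atp6 (0.15) and mt-Nd4 (0.094) in delta minus alpha cells and of mt-Co3 in beta minus alpha cells (-0.19).

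Among the rRNA genes, the 12 protein genes tested and the 3 tRNA genes called in a comparison, the signs that turned otherwise were of differences not called. In delta minus alpha cells these were mt-Rnr1 (-0.021), mt-Atp8 (-0.064), mt-Nd6 (-0.031) and mt-Cytb (-0.019) with size factors; mt-Co1 (0.10), mt-Atp6 (0.49) and mt-Nd4 (0.41) with quantile normalization; mt-Rnr2 (1.17), mt-Nd1 (0.49), mt-Nd2 (0.60), mt-Co1 (0.85), mt-Co2 (0.48), mt-Atp6 (1.10), mt-Nd4 (1.20) and mt-Tl1 (0.37) with non-hormone scaling; mt-Rnr2 (0.12), mt-Atp6 (0.055) and mt-Nd4 (0.18) with length-weighted scaling; and mt-Rnr2 (0.54), mt-Atp6 (0.17) and mt-Nd6 (-0.0013) with the sample set. Over all 22 tRNA genes, 12 differences were positive in delta minus alpha cells, 15 with non-hormone scaling and 13 with the sample set or the block. In beta minus alpha cells the signs that turned were of mt-Co3 (-0.033) and mt-Tc (-0.14) with quantile normalization. Medians over the 12 protein genes moved as well. Non-hormone scaling took them from 2.04 to 3.65 in beta minus alpha and from -0.26 to 0.97 in delta minus alpha cells (all genes 0.65 and 0.67). Quantile normalization took them from -0.26 to 0.24 in delta minus alpha and from -2.13 to -1.34 in delta minus beta cells (all genes -0.042 and 0.0). Leaving out 1 sample gave delta minus alpha ranges of -0.44 to 0.15 for mt-Atp6, -0.039 to 0.44 for mt-Atp8, -0.029 to 0.34 for mt-Cytb, -0.28 to 0.27 for mt-Nd4, -0.024 to 0.72 for mt-Nd5, -0.12 to 0.41 for mt-Nd6, -0.32 to 0.46 for mt-Rnr1, -0.54 to 0.29 for mt-Rnr2 and -1.51 to 1.10 for mt-Td, and beta minus alpha ranges of -0.66 to 0.79 for mt-Co3, -0.43 to 0.77 for mt-Nd3 and -0.39 to 0.32 for mt-Tc.

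The median share of plain summed FPKM was 0.225, 1.38 and 0.361% for protein genes, 1.42, 16.3 and 3.23% for rRNA genes and 1.22, 5.17 and 2.19% for tRNA genes in alpha, beta and delta cells. Length-weighted shares were 1.07, 2.26 and 1.12% for protein genes, 14, 38.1 and 13.8% for rRNA genes and 0.60, 0.57 and 0.72% for tRNA genes, so that for tRNA genes beta cells went from the highest to the lowest median. Relative to nuclear non-hormone FPKM, the beta medians were 2.12% for protein and 8.03% for tRNA genes.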
